A study of Saccharomyces cerevisiae with 30 samples.

Results

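The calling card library of Dig1 was set against the libraries of 27 other transcription factors and regulators of Saccharomyces cerevisiae, gene by gene. The members were all 25778 insertion lines listed for Dig1, of 401017 lines in the 28 calling card libraries of the series, and the comparison pool held the other 375239. For each of 6444 genes, lines were counted over 1200 bp in front of the start codon. Of these genes, 5817 had a symbol in the RefSeq gene table and 627 are known here by systematic name only.

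The yeast was of the Σ1278b background, per the series' design text, and was kept in synthetic medium low in ammonium. Ty5 jumping was then induced with 2% galactose. Dig1, the Ste12 and Tec1 libraries used as partners, and the other 25 libraries shared this medium, this induction and this transposon, and differed by the factor named in the label. Each factor had 1 library, and the labels name no untagged or Sir4-free control library, no cell type or ploidy, and no promoter for the fusions. The series also holds 2 RNA libraries, 1 from rich and 1 from nitrogen-starved medium.

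In the calling card method a DNA-associated protein is fused to a part of Sir4, which recruits the integrase of the retrotransposon Ty5, so that Ty5 inserts near the places where the protein sits. Dig1 is an inhibitor of the transcription factor Ste12 and acts together with its relative Dig2; it reaches DNA through Ste12 and, at filamentation genes, through the pair of Ste12 and Tec1. The kinases Kss1 and Fus3 relieve this inhibition when the filamentation or the pheromone pathway is active. Ste12 by itself serves mating genes, while Tec1 brings it to genes of filamentous, invasive growth.

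The Dig1 library was among the richest. Its 25778 lines ranked 4th of 28, against 2836 to 41619 lines in the others (median 11796), and they carried 9457368 reads, the most of any library. The lines stood at 19027 positions. A position was listed once in 15402 cases and up to 6 times in 195 cases, and 26.2% of the Dig1 lines repeated a position already listed (others 0.378% to 27.6%). The labels describe 3 separate digests of each DNA sample, and whether lines at a position are separate insertions cannot be told from the lists. All intervals given here are exact intervals at 95% for counting error alone, and with 1 library per factor no value has a replicate check. Unless positions are named, the intervals take each listed line as a separate insertion. Of the Dig1 lines, 87.7% lay in the 1200 bp upstream of at least 1 gene, against a median of 81.9% in the other libraries, and 2.88% lay within 20 kb of a chromosome end, against a median of 5.74%. The partners were close to Dig1 in both, with 88.9% and 2.90% in Ste12 and 87.8% and 3.61% in Tec1.

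A gene was called above the pool when its share of Dig1 lines was at least 3-fold its share of pooled lines and it held at least 10 Dig1 lines. This held for 79 of 6444 genes (1.23%), at 58 loci of overlapping upstream windows. The lower bound of the fold was above 3 at 42 of the 79 genes. Dig1 had the highest rate of the 28 libraries at 40 of the 79 and was among the highest 3 at 77. The windows of the 79 genes together held 12106 Dig1 lines, or 47.0% of the library. The same windows held 47.6% of the Ste12 lines and 45.2% of the Tec1 lines. Rlm1 was next with 10.7%, Sok2 was lowest with 2.21%, and the median over the 27 libraries was 2.86%. The windows were chosen for their Dig1 lines, which by itself raises the Dig1 share. At 76 of the 79 genes the fold was still at least 3 when each position was counted once. The exceptions were SWR1 at 2.33-fold and GCN20 and YFR009W-A at 1.83-fold. GCN20 and YFR009W-A have the same listed coordinates, so the same 11 Dig1 lines were counted for both.

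The gene with the highest fold was PGU1, which encodes a secreted endopolygalacturonase that digests pectin and is a known output of the filamentation pathway. PGU1 lies on chromosome 10 at 724312 to 725397, forward strand, in the coordinates of the deposited expression table. Dig1 placed 214 lines upstream of it, a rate of 8.30 per 1000 lines of the library. Ste12 placed 3 lines (0.159 per 1000) and Tec1 11 lines (0.579 per 1000), and the other 25 libraries ran from 0 to 0.421 per 1000 with a median of 0.0541. No other library came near the Dig1 rate. The fold over the pool was 66.3 (interval 48.1 to 92.9). It was 52.4 over Ste12 (17.7 to 256) and 14.3 over Tec1. The lines stood at 143 positions, of which 9 were also listed for Ste12 or Tec1, and 99 of the lines lay 200 to 300 bp upstream of the start codon.

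The gene next in fold was STE12, the gene of the factor that Dig1 inhibits. It lies on chromosome 8 at 283871 to 285936, forward strand. Its window held 379 Dig1 lines (14.7 per 1000), 99 Ste12 lines (5.23 per 1000) and 60 Tec1 lines (3.16 per 1000), while the other 25 libraries ran from 0 to 0.739 per 1000, median 0.139. Dig1, Ste12 and Tec1 stood apart from all other libraries, and Dig1 was the highest of the 3. The fold of Dig1 was 25.2 over the pool (21.3 to 29.9), 43.7 when Ste12 was taken out of the pool, and 82.7 over the 25 libraries. It was 2.81 over Ste12 and 4.66 over Tec1. Of the 214 Dig1 positions there, 76 were also listed for Ste12 or Tec1. The richest step was 300 to 400 bp upstream, with 146 lines.

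**Figure D1:**
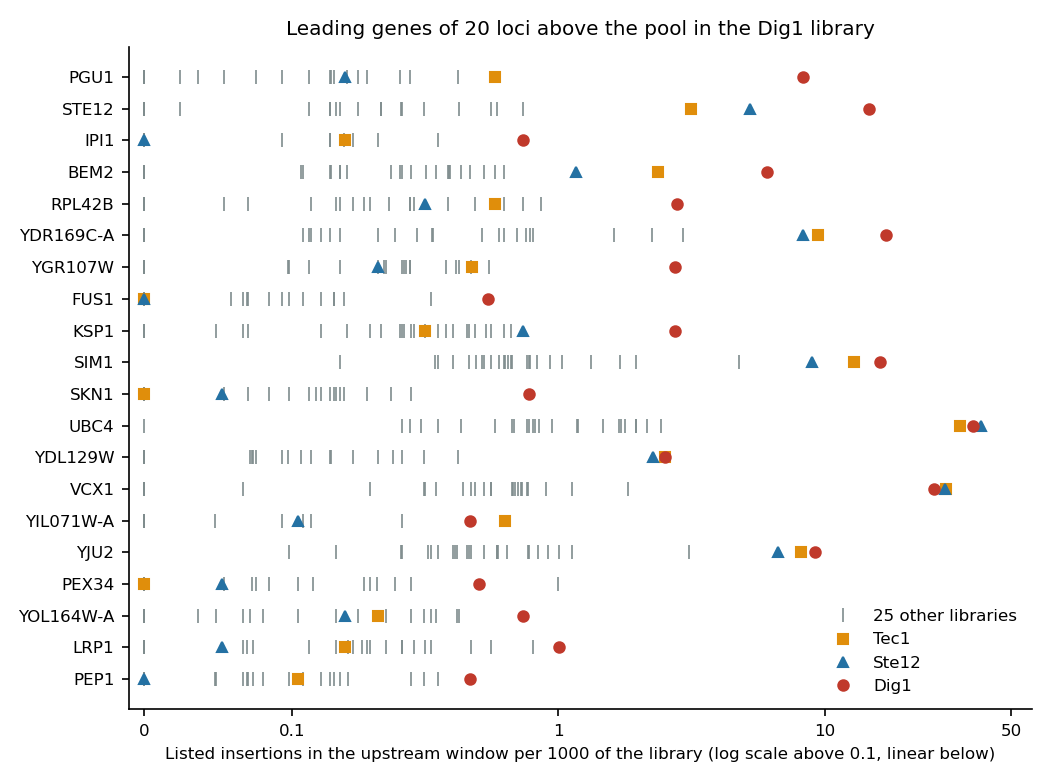
Rates of listed insertions per 1000 lines of the library (log scale above 0.1, linear below) upstream of the leading genes of the 20 loci with the highest fold in the Dig1 library. Circles show Dig1, triangles Ste12, squares Tec1 and grey ticks the other 25 libraries, 1 library each. At PGU1 the Dig1 point at 8.30 stands alone, whereas at UBC4 and VCX1 Dig1, Ste12 and Tec1 lie close together and apart from the rest.

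Of the 4 genes of Dig1 and its partners, STE12 and TEC1 were called above the pool and the genes of the inhibitors themselves were not. TEC1 encodes the filamentation factor that pairs with Ste12 and lies on chromosome 2 at 381532 to 382992. Its window held 1489 Dig1 lines (57.8 per 1000), 1360 Ste12 lines (71.9 per 1000) and 1175 Tec1 lines (61.8 per 1000). The other 25 libraries ran from 0.433 to 11.4 per 1000, highest in Mit1. The fold of Dig1 over the pool was 5.38 (5.06 to 5.71), and over the 25 libraries it was 13.0. DIG1 itself held 7 lines, 1.48-fold (0.573 to 3.21), and DIG2 held 5 lines, 0.735-fold (0.234 to 1.77).

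Among the 4 kinases of the cascade, both MAP kinases were called. KSS1, the kinase of the filamentation pathway, held 36 Dig1 lines against 12 in Ste12 and 16 in Tec1, a fold over the pool of 3.77 (2.54 to 5.47), and Dig1 had the highest rate of all 28 libraries there. FUS3, the kinase of the mating pathway, held 11 Dig1 lines, none in Ste12 and 2 in Tec1, a fold of 4.71 (2.15 to 9.52). FUS3 shares its upstream stretch with PEP1, a sorting receptor for vacuolar proteins, whose window held 12 Dig1 lines. The kinase gene STE7 held 5 Dig1 lines (3.31-fold, 0.979 to 8.95), below the minimum for a call, and STE11 held 0.

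Of the 10 inputs and scaffold genes of the pathway, OPY2 was called. Opy2 anchors the adaptor Ste50 at the plasma membrane, and its gene held 30 Dig1 lines, 11 Ste12 lines and 5 Tec1 lines, 4.20-fold over the pool (2.70 to 6.36). MSB2, the signalling mucin at the head of the filamentation pathway, held 81 Dig1 lines and a fold of 2.44 (1.90 to 3.09), with its lower bound above 1 but its value under the threshold. STE20, the kinase above the cascade, held 7 lines (0.679-fold) and the scaffold gene STE5 held 1. Of the 7 negative regulators, MSG5 was called. It encodes a phosphatase that acts on the MAP kinases, and it held 47 Dig1 lines, 19 Ste12 lines and 18 Tec1 lines, 5.03-fold over the pool (3.53 to 7.06), with Dig1 the highest of the 28. None of the 6 receptor and G protein genes reached the minimum, with 0 to 3 Dig1 lines each.

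The filamentation outputs were called at 3 of 7 genes, namely PGU1, SVS1 and PCL2. PCL2, a cyclin of the kinase Pho85, had more Dig1 lines than any other window. It lies on chromosome 4 at 222028 to 222954 and held 1623 lines (63.0 per 1000), against 87.3 per 1000 in Ste12, 80.8 in Tec1 and 48.7 in Skn7, the highest of the other 25. The other 25 began at 0.577 per 1000 and had a median of 1.74. The fold over the pool was 5.59 (5.27 to 5.92), and it was 8.70 with Ste12 taken out of the pool. Dig1 was lower than both partners at PCL2, at 0.721-fold of Ste12 and 0.780-fold of Tec1. SVS1, a cell wall protein gene, held 912 Dig1 lines (35.4 per 1000), 1130 Ste12 lines and 990 Tec1 lines, 3.52-fold over the pool (3.27 to 3.79).

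The other outputs were not above. CLN1, a cyclin of the start of the cell cycle, held 172 lines (0.944-fold, 0.804 to 1.10). BUD8, a marker of the bud site opposite the birth scar, held 52 (2.23-fold, 1.63 to 2.99). FLO11, the adhesin of filamentous growth, was called below the pool, with 15 Dig1 lines where the pool gave 57.0 expected, 0.263-fold (0.147 to 0.436). Mit1 held 505 of the 830 pooled lines at FLO11, and without Mit1 the fold was 0.646, no longer below.

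Mating genes held few lines of any library, but some were above the pool in Dig1. FUS1, a membrane protein needed for cell fusion, lies on chromosome 3 at 74562 to 76100. It held 14 Dig1 lines at 14 positions and none in Ste12 or Tec1, while 12 of the other 25 libraries were at 0 and the highest, Smp1, was at 0.333 per 1000 against 0.543 in Dig1. The fold over the pool was 10.2 (4.76 to 21.2), and 8 of the 14 lines lay 200 to 300 bp upstream. Set against the floor of 3 counts in the partner library, the rate in Dig1 was at least 3.43-fold higher than in Ste12 and at least 3.44-fold higher than in Tec1. This floor leaves out the counting error of the Dig1 lines, and the exact lower bounds of the ratios were 2.435 and 2.446. KAR4, a regulator of nuclear fusion genes, held 14 Dig1 lines, 2 Ste12 lines and none of Tec1, 6.37-fold over the pool (3.14 to 12.3). Smp1 was higher at KAR4, with 0.998 per 1000 against 0.543 in Dig1. KAR4 shares the stretch with PEX34, a peroxisome protein gene with 13 Dig1 lines, where Smp1 was higher too. PRM5, a pheromone-regulated membrane protein gene, held 43 lines (3.37-fold, 2.36 to 4.71), with 23 in Ste12, 22 in Tec1 and its highest rate in Gcn4.

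These 3 were the called members of 17 cell and nuclear fusion genes with a window; PRM10 of that list could not be matched. None of the 12 agglutinin and pheromone genes was called. AGA1, which anchors the agglutinin of mating type a cells, held 9 Dig1 lines against 8 in the whole pool, 16.4-fold (5.61 to 48.8), and fell short of the minimum of 10 lines. Its p-value in the authors' deposited table was 1.13e-06. The other agglutinin and pheromone genes held 0 to 3 Dig1 lines each, so a difference there was not detectable at this depth.

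**Figure D2:**
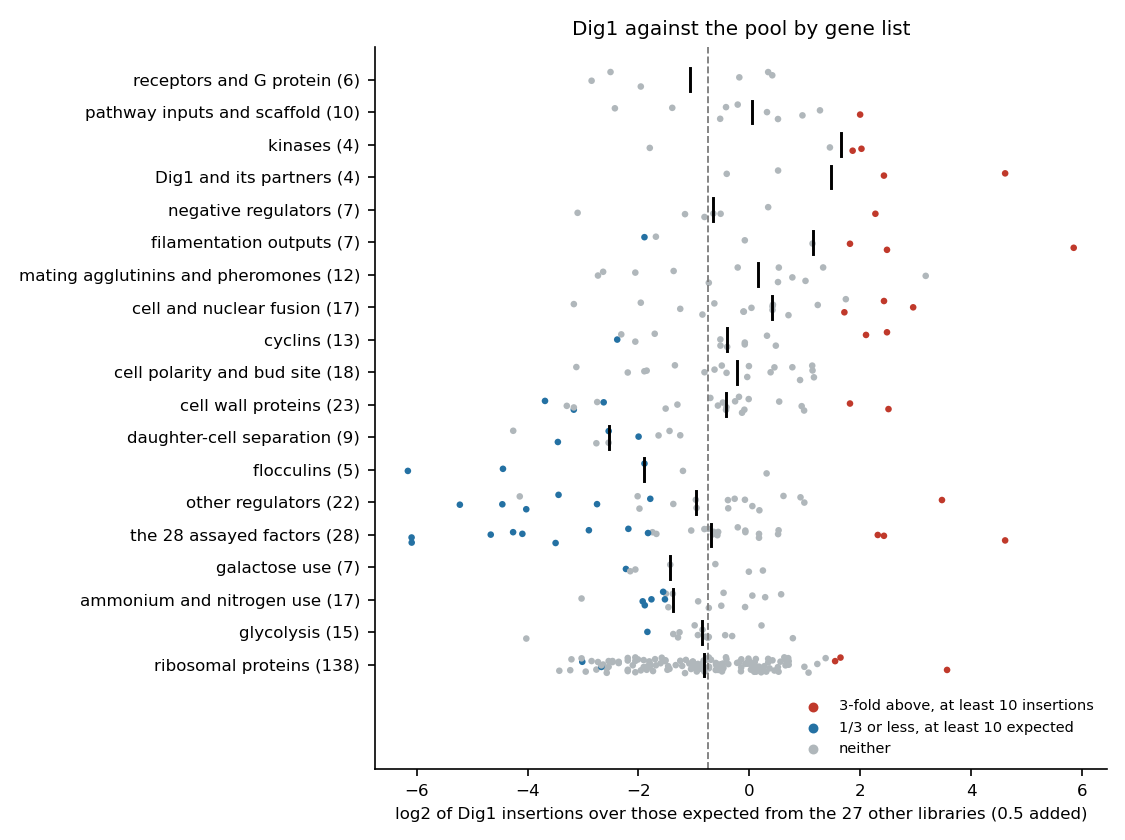
Log2 of Dig1 lines over the lines expected from the pool, with 0.5 added to both, for the genes of each list (number of genes in parentheses). Red points are called above and blue points below, black bars are list medians and the dashed line is the median of all genes at -0.75. The kinases, Dig1 and its partners and the filamentation outputs have medians of 1.66, 1.47 and 1.14, while daughter-cell separation and flocculin genes have medians of -2.54 and -1.89.

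Against the median log2 value of -0.75 over all genes, the lists of the pathway had medians of 1.66 (4 kinases), 1.47 (Dig1 and its partners), 1.14 (filamentation outputs), 0.42 (cell and nuclear fusion) and 0.05 (inputs and scaffold). The negative regulators were at -0.65 and the receptors and G protein at -1.07. A gene could be called below only where at least 10 Dig1 lines were expected, and over all 548 such genes 35.6% were below. The 13 cyclin genes had 2 called above, PCL1 and PCL2, and CLB1 below of 5 with enough expected lines, with a median of -0.40. PCL1 held 476 Dig1 lines, 580 Ste12 lines and 536 Tec1 lines, 4.31-fold over the pool (3.88 to 4.78).

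Of 23 cell wall genes, SVS1 and GFA1 were above, and SED1, CCW12 and CIS3 were below of 13 with enough expected lines. GFA1 makes the precursor of chitin and held 596 Dig1 lines (23.1 per 1000), 5.71-fold over the pool (5.18 to 6.28), with 13.6 per 1000 in Ste12 and 21.0 in Tec1. Rlm1, a factor of the cell wall integrity pathway, was at 74.7 per 1000 at GFA1, and Dig1 was the next highest of all 28. None of 18 polarity and bud site genes was above or below. None of the 9 genes of daughter-cell separation was above, and DSE1, DSE2 and CTS1, all 3 with enough expected lines, were below. Fkh1 held most of the pooled lines at these 3, and without it DSE2 and CTS1 had under 10 expected lines and DSE1 was at 0.208-fold. Of 5 flocculins none was above, and FLO1, FLO9 and FLO11 were below of 4 with enough expected lines.

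Lists taken for other processes lay near or under the median of all genes. The 7 galactose genes had a median of -1.43, with GAL3 below of 3 with enough expected lines, and the 15 glycolysis genes -0.85, with ENO1 below of 4. The 17 genes of ammonium and nitrogen use had a median of -1.38, with MEP1, GAP1, GDH1, DAL4 and PUT1 below of 10 with enough expected lines; MEP1 was at 0.338-fold without Mfg1, just over the limit. The 138 ribosomal protein genes had a median of -0.81, with RPL41B, RPP1B and RPL42B above and RPS0A and RPS3 below of 10 with enough expected lines; without Mit1, RPS0A had 9.36 expected lines, under the minimum. RPL41B at 3.07-fold dropped under 3 without any 1 of 8 libraries, to as little as 2.76-fold without Mfg1.

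Among genes of the 28 assayed factors, Dig1 was above the pool at STE12, TEC1 and MSS11 and below it at SOK2, MIT1, NRG1, PHD1, MGA1, HMS1, HMS2, YAP6 and MSN4, which makes 9 below of 17 with enough expected lines. Without Fkh1, HMS2 was at 0.380-fold and no longer below. MSS11, an activator of FLO11, held 72 Dig1 lines (2.79 per 1000), against 1.27 per 1000 in Ste12, 1.63 in Tec1 and at most 2.55, in Sfl1, elsewhere. Its fold was 5.11 (3.85 to 6.72). MGA1, a gene related to heat shock factors, held 1 Dig1 line where 101.7 were expected, or 47.2 without Sfl1. MSN4, a stress response factor gene, held 1 where 101.5 were expected, or 65.7 without Mfg1. SOK2, a repressor of filamentous growth, held 4 lines where 113.5 were expected (0.0353-fold), or 53.6 without the Sok2 library itself (0.0746-fold). Of 22 other regulator genes, STB3 was above, and SFG1, CIN5, XBP1, TOS8, GAT2 and TUP1 were below of 11 with enough expected lines.

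STB3 encodes a protein that binds promoters of ribosome biogenesis genes, and lies on chromosome 4 at 773508 to 775049, reverse strand. Its window held 1455 Dig1 lines (56.4 per 1000), 33.9 per 1000 in Ste12 and 36.3 in Tec1. The other 25 libraries ran from 0 to 8.70 (Gln3), with a median of 0.810. The fold was 11.1 over the pool (10.4 to 11.9) and 33.3 over the 25 libraries, and 375 lines lay 700 to 800 bp upstream. The lines stood at 520 positions. With each position counted once the fold over the pool was 7.80 (7.015 to 8.654), below the interval found from lines. The small gene YDR169C-A next to it held 438 lines of the same stretch (12.1-fold). PCL2, TEC1 and STB3 together held 4567 lines, 17.7% of the Dig1 library.

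Further leading loci lay mostly outside the lists of the pathway. BEM2 held 157 Dig1 lines (6.09 per 1000), against 1.16 in Ste12, 2.37 in Tec1 and at most 0.626 elsewhere, a fold of 14.3 (11.4 to 17.9). RPL42B and the divergent CHS7, which helps chitin synthase leave the endoplasmic reticulum, shared 72 Dig1 lines at 12.8-fold and 12.6-fold, with 6 in Ste12 and 11 in Tec1. YGR107W held 71 lines (11.4-fold), most frequent at 900 to 1000 bp, and within 600 bp of the start codon it was at 0.383-fold. SKN1, a gene of beta-glucan synthesis, held 20 lines (8.09-fold), 1 in Ste12 and 0 in Tec1. SIM1, a member of the SUN family of wall proteins, held 416 lines (8.78-fold, 7.75 to 9.93).

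UBC4, a ubiquitin-conjugating enzyme gene, lies divergently beside TEC1 and held 925 lines in a window that overlaps that of TEC1. It was 7.72-fold above the pool and 12.6-fold with Ste12 left out. VCX1, a vacuolar calcium exchanger gene, held 665 lines (7.60-fold, 12.5 with either partner library left out). YDL129W held 65 lines (7.63-fold, 11.8 without Tec1). YIL071W-A held 12 (7.59-fold, 15.1 without Tec1), and its listed coordinates are shared with another gene. None of these 12 lay within 600 bp of the listed start, so that the gene was at 0 in a 600 bp window. YJU2, a splicing factor gene, held 238 (7.37-fold), YOL164W-A 19 (6.15-fold) and LRP1, a cofactor of the nuclear exosome, 26 (6.10-fold). At VCX1, YDL129W and UBC4 the Dig1 rate was within 0.906 to 1.12 times that of each partner.

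IPI1, KSP1 and SAM35 neighbour STE12. IPI1, a gene of ribosome assembly with its start codon at 286460, held 19 Dig1 lines, none of Ste12 and 3 of Tec1 (15.4-fold over the pool, 7.63 to 31.0). KSP1, a protein kinase gene, and SAM35, a gene of mitochondrial protein sorting, share a stretch with 71 lines (9.15-fold, 6.70 to 12.4). Around STE12 the excess of Dig1 over the 25 libraries reached past the window on both sides. It was 10.5-fold at 1.2 to 2.4 kb upstream (70 lines), 5.68-fold at 5 to 10 kb upstream (3.66 to 8.66; 33 lines at 29 positions), 58.9-fold over the first 1.2 kb after the start codon (36 lines) and 5.47-fold at 2.4 to 5 kb after it (3.21 to 9.05; 23 lines). It was 1.74-fold at 5 to 10 kb after the start codon and 0.872-fold at 10 to 20 kb upstream. In the stretch 5 to 10 kb upstream Ste12 had 2 lines and Tec1 6. The called window of LRP1, with 26 Dig1 lines, lies in that stretch. The called window of NAM8, with 16 Dig1 lines, lies 2.4 to 5 kb after the start codon of STE12.

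PCL2 and TEC1 also had rich flanks, which held other called genes. Upstream of PCL2 the fold over the 25 libraries was 47.2 at 1.2 to 2.4 kb and 39.3 at 2.4 to 5 kb (660 lines), and 2.26 at 2.4 to 5 kb after the start codon. Upstream of TEC1 it was 30.8 at 1.2 to 2.4 kb (820 lines) and 1.03 at 10 to 20 kb. PGU1 had 9.81-fold at 1.2 to 2.4 kb upstream and 1.11-fold at 5 to 10 kb upstream. At BEM2 the fold was 1.07 at 2.4 to 5 kb upstream, and at FUS1 it was 0.531 there.

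**Figure D3:**
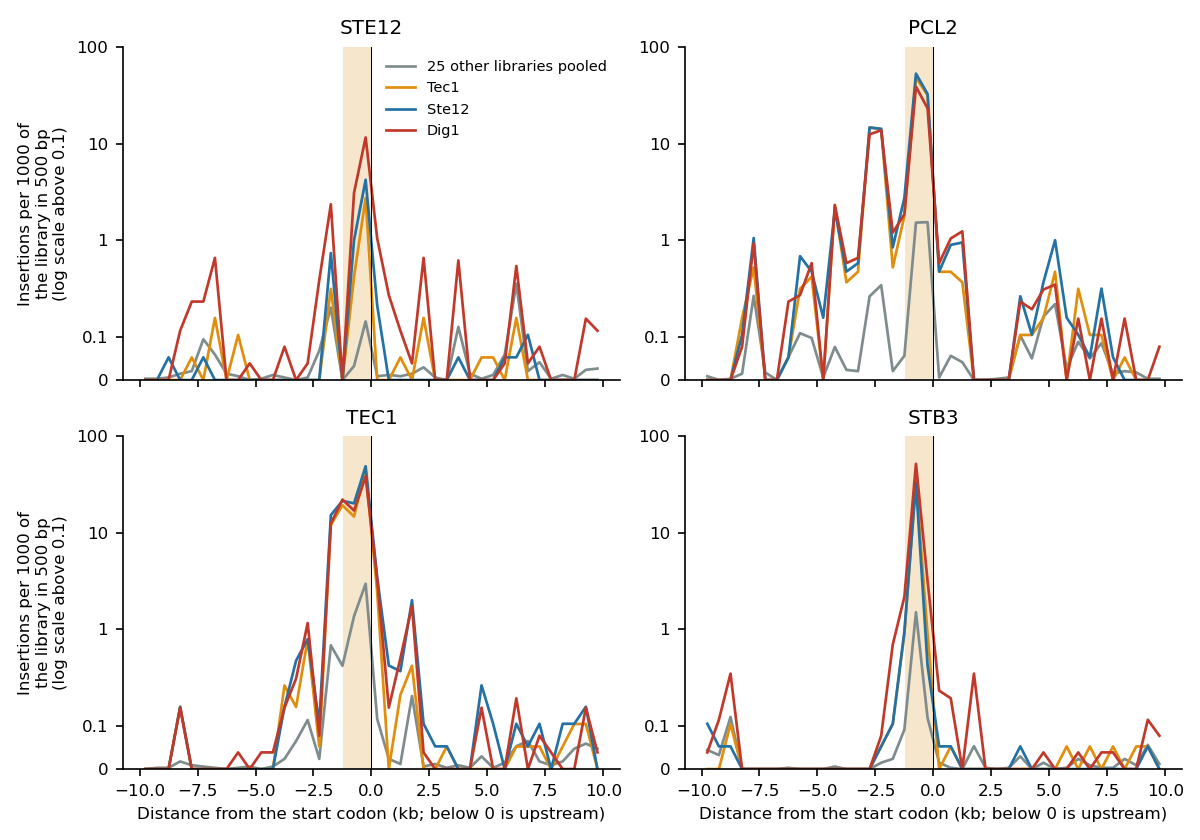
Insertions per 1000 lines of the library in 500 bp steps (log scale above 0.1, linear below) within 10 kb of the start codons of STE12, PCL2, TEC1 and STB3, for Dig1, Ste12, Tec1 and the other 25 libraries pooled; negative distances are upstream and the shaded band is the counted window. At PCL2 and TEC1 the 3 lines run together, and around STE12 the Dig1 line is above the others in the window and in several steps outside it.

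Over the leading genes of the 58 loci, the Dig1 lines were most frequent 400 to 600 bp upstream of the start codon, with 1361 lines from 400 to 500 bp and 1448 from 500 to 600 bp. They fell to 152 lines at 1000 to 1100 bp. These sums weigh each locus by its lines. SVS1 alone gave 249 lines at 400 to 500 bp and GFA1 215 at 500 to 600 bp. At PGU1 and BEM2 the richest step was 200 to 300 bp. Beyond the window, 705 lines stood 1600 to 1700 bp upstream, a distance that for some leading genes falls in the window of another called gene. For UBC4 the stretch 1.2 to 2.4 kb upstream overlaps the TEC1 window and held 1467 lines. The 705 lines are therefore no measure of a second site far from the start codon. Ste12 and Tec1 were also most frequent from 400 to 600 bp, with 1153 and 1140 lines in the 2 steps for Ste12 and 1168 and 1149 for Tec1. The other 25 libraries pooled held 1569 and 1442 lines there, their highest steps within the window.

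Dig1 was next compared with each partner alone, over genes with at least 10 lines in either library. Against Ste12, Dig1 was at least 3-fold above at 58 of 383 genes (15.1%) and at 1/3 or less at 40 (10.4%). Against Tec1 it was above at 57 of 391 genes (14.6%) and at 1/3 or less at 43 (11.0%). Of the 79 genes above the pool, 25 were 3-fold above Ste12, 32 were 3-fold above Tec1, and none was at 1/3 or less of either. The 79 were chosen on their Dig1 lines over a pool that holds both partners, which by itself favours Dig1 in these ratios, so the counts are a description. The interval of the ratio to Ste12 lay above 1 at 42 of the 79 genes, below 1 at 9, and held 1 at 28; for Tec1 these counts were 39, 5 and 35.

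Genes that stood 3-fold above both partners numbered 33 in all. Those among the 79 numbered 21, at 17 loci. They were PGU1, FUS1, KAR4 with PEX34, SKN1, IPI1, KSP1 with SAM35, RPL42B with CHS7, LRP1 with LAM4, YGR107W, CPP3, SEC7, EXG2, NEL1, NAM8, JJJ2, TRX1 and YOL164W-A. Of these, IPI1, KSP1, SAM35, LRP1, LAM4 and NAM8 have start codons within 10 kb of that of STE12. The median reads per Dig1 line at the 21 genes ran from 1 at CPP3 to 81 at NEL1. It was 3 at SEC7 and YOL164W-A and 4 at TRX1. At YOL164W-A, 11 of the 19 Dig1 lines lay 1100 to 1200 bp upstream. Where Ste12 had lines, the ratio was for example 19.1 at LRP1 (1 Ste12 line, lower bound 3.14), 14.7 at SKN1 (1 line, lower bound 2.35), 13.0 at YGR107W (4 lines, lower bound 4.87) and 8.81 at RPL42B (6 lines, lower bound 3.86). Where Ste12 had none, the ratio to the floor was 4.65 at IPI1 (exact lower bound 3.43) and 3.43 at FUS1 (2.435). It was 3.18 at JJJ2, a gene of the J-domain family (2.24). PEP1, not among the 21, was at 2.94 (2.04). Where Tec1 had lines, the ratio to Tec1 was for example 14.3 at PGU1, 8.73 at KSP1 (6 lines, lower bound 3.82) and 5.82 at YGR107W (9 lines, lower bound 2.90). Where Tec1 had none, the ratio to the floor was 4.92 at SKN1 (exact lower bound 3.64) and 3.93 at NAM8, a splicing protein gene (2.84). It was 3.44 at KAR4 and FUS1 (2.446 at each) and 3.20 at PEX34 (2.25). The genes named here without lines of a partner rest on 12 to 20 Dig1 lines each.

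Most of the lowest ratios were at loci where all 3 libraries were rich. NFG1, a negative regulator of filamentous growth, held 678 Dig1 lines (26.3 per 1000), 933 Ste12 lines and 812 Tec1 lines. Dig1 was at 0.533-fold of Ste12 there (0.483 to 0.590) and at 0.616-fold of Tec1 (0.555 to 0.683). AFB1, a gene of the a-factor barrier that lies beside NFG1 and shares its listed coordinates with an overlapping gene, was at 0.627-fold and 0.666-fold. SVS1 was at 0.593-fold and 0.679-fold, and PCL1 at 0.602-fold and 0.655-fold. HCH1, a regulator of the chaperone Hsp90, was at 0.683-fold of Ste12 (0.519 to 0.897), with 106 Dig1 and 114 Ste12 lines. YIL071W-A, with 12 lines in each of Dig1 and Tec1, was at 0.737-fold with an interval of 0.303 to 1.79 that holds 1.

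**Figure D4:**
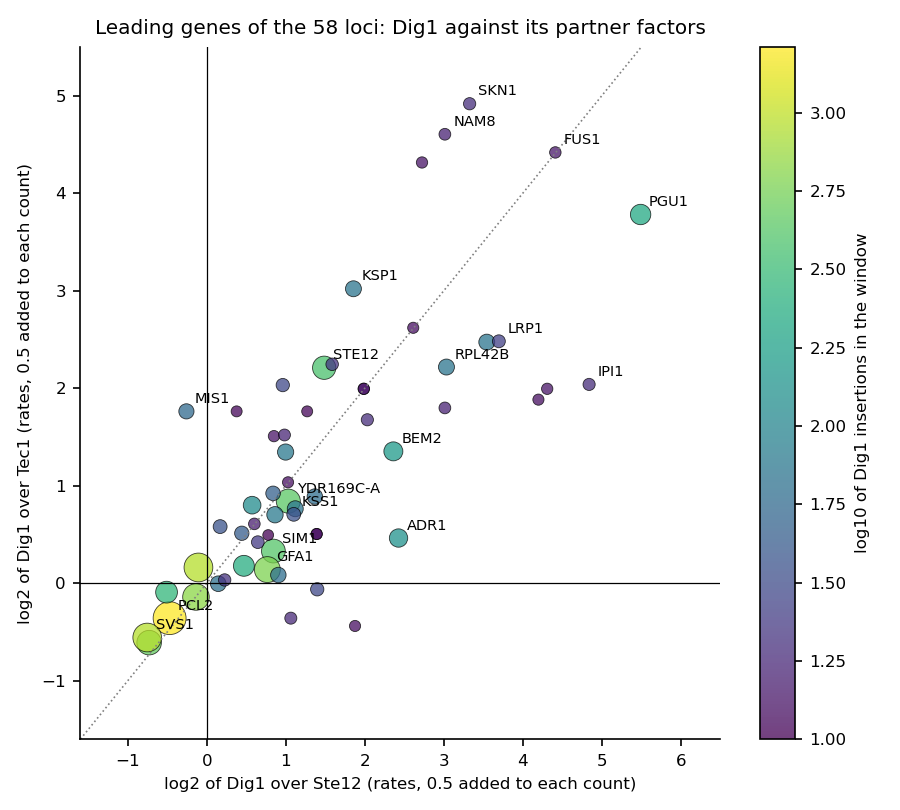
Log2 ratio of Dig1 to Tec1 against log2 ratio of Dig1 to Ste12 for the leading genes of the 58 loci, as rates with 0.5 added to each count; colour and size show the log10 of Dig1 lines in the window. PCL2 and SVS1 lie below 0 on both axes, STE12, BEM2 and ADR1 above 0 on both, and PGU1, FUS1 and SKN1 in the upper right.

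Some loci split between the partners. ADR1, a regulator of genes for nonfermentable carbon, held 135 Dig1 lines (5.24 per 1000), 0.951 per 1000 in Ste12 and 3.79 in Tec1, so that Dig1 was 5.51-fold above Ste12 and 1.38-fold above Tec1. MIS1, a mitochondrial enzyme gene of folate metabolism, held 57 Dig1 lines, at 0.837-fold of Ste12 (50 lines) and 3.50-fold of Tec1 (12 lines).

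Genes far below a partner were mostly ones where the partner's lines had few reads. Of the 40 genes at 1/3 or less of Ste12, 36 had a median of at most 2 reads per Ste12 line and 37 were also below the pool. Of the 43 at 1/3 or less of Tec1, 37 had such a median and 40 were below the pool. The exceptions with Ste12 lines of at least 10 reads were PRY2, a sterol-binding protein gene, with 77 Dig1 and 204 Ste12 lines (0.277-fold, 0.210 to 0.362), its neighbour FPT1, with 92 and 228 lines (0.296-fold), ECM22, with 9 and 36, and YPL162C, with 4 and 10; these 4 were named after their values were seen. With lines of at least 10 reads only, 3 genes were at 1/3 or less of Ste12 and 6 of Tec1. Whether lines of 1 or 2 reads in these libraries are insertions of their own was not tested.

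Positions were compared next. Of the 19027 Dig1 positions, 4783 (25.1%) were also listed for Ste12 or Tec1, and 8860 (46.6%) for at least 1 other library. In the windows of the 79 genes the share with Ste12 or Tec1 was 3630 of 6261 positions, and elsewhere it was 9.03%. The Dig1 positions in those windows had a median of 116 reads, against 13 elsewhere. Positions shared with Ste12 or Tec1 had a median of 189 reads in Dig1, and the others 16.

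From the side of the other libraries, 26.9% of Ste12 positions and 26.6% of Tec1 positions were positions of Dig1, and the next were Msn1 with 13.0%, Gln3 with 12.3% and Skn7 with 11.6%, down to Hms2 with 2.67%. Within the 79 windows the order was different. There 66.8% of Ste12 positions and 69.2% of Tec1 positions were positions of Dig1, against 82.5% for Mit1, 77.1% for Gln3, 75.5% for Msn1 and 73.2% for Flo8. Outside the windows the shares were 7.53% for Ste12 and 7.74% for Tec1, against 9.38% for Msn1 and 8.67% for Gln3. The libraries differed in the reads at these positions. In the 79 windows, the positions that Ste12 and Tec1 shared with Dig1 had medians of 95 and 108 reads in their own libraries, and their unshared positions 15 and 12. For Msn1 and Gln3 the shared positions of these windows had a median of 1 read and the unshared ones 14.5 and 13.0, and for Mit1 both had a median of 1.

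**Figure D5:**
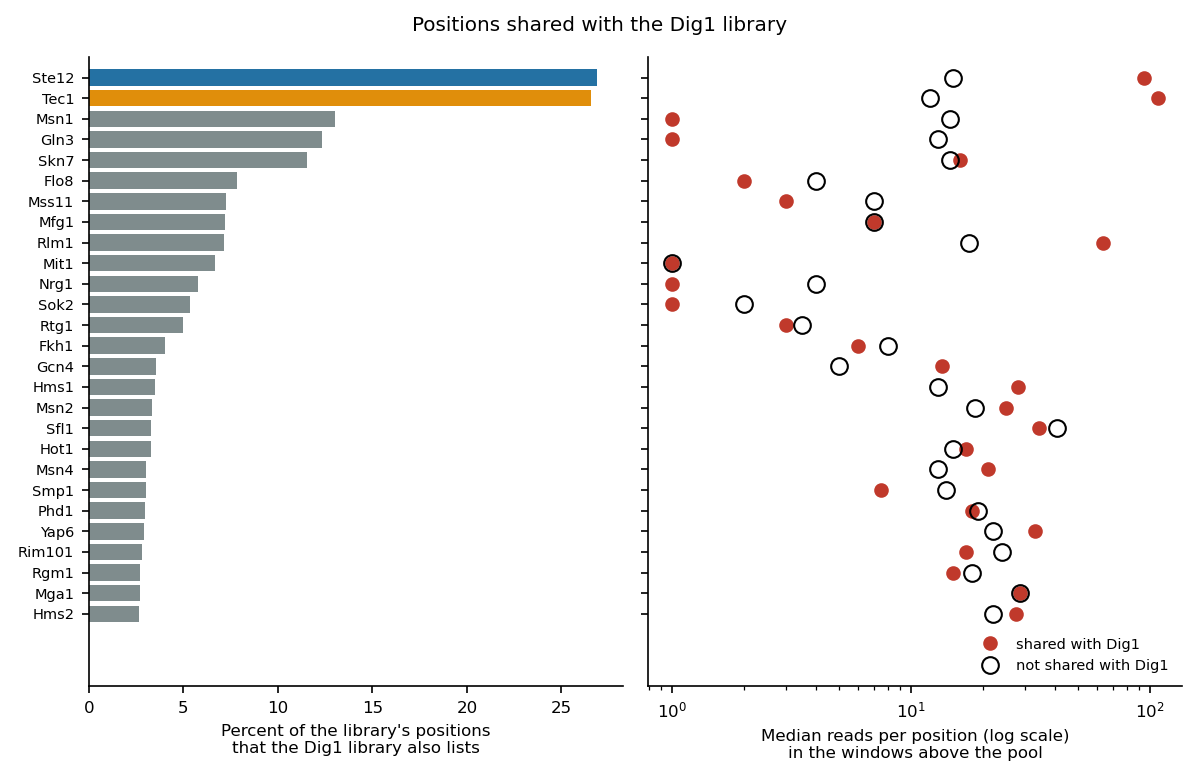
Left, percent of each other library's positions that the Dig1 library also lists. Right, median reads per position in that library (log scale), filled for positions shared with Dig1 and open for unshared positions, both in the windows of the 79 genes above the pool. Over whole libraries Ste12 and Tec1 have the highest shares (26.9% and 26.6%), and their shared positions have medians of 95 and 108 reads, whereas Msn1, Gln3 and Mit1 have a median of 1 read there.

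Genes below the pool were judged where the pool gave at least 10 expected Dig1 lines. Of 548 such genes, 195 were at 1/3 or less (35.6%). The median log2 fold over the 548 was -1.03, so that most of these genes were lower in Dig1, whose called windows hold 47.0% of its lines. With library sizes taken outside those windows the median was -0.27, a shift of 0.76, and 77 genes were below and 131 above. Among the 27 other libraries, the highest rate at the 195 genes was that of Mfg1 at 33, Skn7 at 19, Fkh1, Sok2 and Mit1 at 17 each, and Hot1 at 11. When the library with the most lines at a gene was left out of the pool, 130 of the 195 genes were still below and 65 were not.

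Of the 195, 7 held no Dig1 line and tied as the lowest. Ties were taken by symbol, so the 5 named were FLO1, FLO9, HPF1, RGS2 and MIN10. FLO1 and FLO9 encode flocculins, HPF1 a wall mannoprotein and RGS2 a regulator of G protein signalling in glucose sensing. The others at 0 were RTA1, with 11.5 expected lines, and YAR047C, with 35.1 and an upper bound of 0.1055. The window of YAR047C overlaps that of FLO1. FLO1 had 35.2 expected lines and an upper bound of 0.105, and without Mit1, which held 363 of the 512 pooled lines, 10.6 were expected. RGS2 had 21.4 expected lines and an upper bound of 0.174. HPF1 had 17.7 expected lines, or 7.24 without Mfg1, and FLO9 had 10.4, or 7.07 without Mit1, both then under the minimum. MIN10 had 10.7. The flocculin genes have near-identical copies and lie near chromosome ends, where reads of one copy may be listed at another.

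The authors' deposited table gives a p-value per gene and factor, from a test and a background that it does not state. For Dig1, 88 genes were at or under 0.001 (1.37% of 6444), of which 60 were among the 79. The other 28 were not above the pool by the rule used here, and none of the 88 was below it. The deposited p-value was over 0.001 at 19 of the 79 genes. Among these were OPY2 (0.00244), TRX1 (0.00137), PEP1 (0.0115), RPP1B (0.0226), FUS3 (0.0262), SEC7 (0.0282), JJJ2 (0.0547) and EXG2 (0.156), named above, and YFR009W-A at 1. FLO10, a flocculin gene with 14 Dig1 lines, had a deposited p-value of 5.93e-09 and a fold over the pool of 1.25 (0.669 to 2.16).

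The 2 RNA libraries place the genes above the pool in the transcriptome of nitrogen starvation. Of the 79 genes, 76 had at least 5 RPKM in 1 of the media. On the scale of log2 of RPKM with 1 added, 11 of the 76 were higher in starved cells by at least 1 (14.5%) and 7 lower by at least 1 (9.21%), with a median of 0.08. Over all 6006 genes at that level, 10.8% were higher and 3.38% lower, with a median of 0.02. No test was possible with 1 library per medium.

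The higher genes were ADR1, from 8.61 RPKM in rich to 124 in starved cells (a log2 difference of 3.70), NFG1, from 369 to 2623 (2.83), PGU1, from 9.89 to 70.2 (2.71), SVS1, from 647 to 3341 (2.37), PCL1 (2.31), TOS7 (1.42), APE1 (1.39), PCL2 (1.29), MRPL10 (1.18), TEC1, from 104 to 235 (1.17), and OPY2 (1.01). The lower ones were FUS1, from 34.4 to 12.03 RPKM (-1.44), INA1 (from 192 to 67.2 RPKM), RPL41B (-1.24), YFR009W-A (-1.05), YDL129W (from 24.3 to 11.6 RPKM), YKL096C-B (-1.57) and YLR412C-A (-1.68). STE12 was at 80.3 and 78.4 RPKM. Of the filamentation outputs above the pool, all 3 were among the higher genes, while KAR4 went from 45.7 to 34.8 RPKM and FUS3 from 230 to 304.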

How the data were processed

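The authors deposited, for each of 28 calling card libraries, a headerless list with chromosome, position and a last column read here as counts of reads per insertion, 1 p-value per gene and factor, and RPKM of 2 RNA libraries. Per the labels' protocols, DNA of colonies was cut in 3 digests and amplified outward from Ty5. The aligner, genome build, read filters and the test behind the p-values were not given in the sources used here.

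Lines were counted as listed in the 1200 bp upstream of each start codon, with coordinates from the deposited expression table and strand from the systematic name. For 1176 of the 6444 genes the listed coordinates equal those of another gene. Among the 79 genes above the pool this held for 7, such as OPY2, YIL071W-A and GCN20. Their windows begin at the edge of the shared interval, which may not be the gene's own start codon. Rates per library total were compared as ratios with exact conditional (Clopper-Pearson) intervals at 95%. A gene was above at 3-fold and 10 Dig1 lines, and below at 1/3 with 10 expected lines. A partner library at 0 lines was set to a floor of 3 counts. No p-value of the present analysis is given. Genes were named by rule: the leading gene of the 20 loci highest in fold with its neighbours, every called member of the gene lists, the 5 lowest below, and the 5 highest and 5 lowest against each partner; genes given for a count or a contrast outside this rule, such as ADR1 and MIS1, were named after their values were seen. The members, lists and tests were chosen with earlier results of these data known. The calls and intervals were tested on simulated counts per gene. Those counts held no repeated positions, and the counting of lines in windows was not part of the test. The work used Python 3.11.15, numpy 2.4.6, pandas 2.3.3, scipy 1.17.1 and matplotlib 3.10.9. RefSeq served for gene symbols only, and promoter motifs were not analysed here.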

Additional observations from a re-analysis of the deposited data

How the results depend on the processing

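The 79 genes above the pool became 71 to 82 and the 195 below 184 to 211 when 1 other library at a time was left out; the lowest count above, without Mfg1, shared 70 genes with the 79. Counting each position once gave 86 above (75 shared) and 122 below. With lines of at least 2 reads, 11 genes were below Ste12 and 15 below Tec1. With lines of at least 10 reads, 54 were above the pool (50 shared), 23 above and 3 below Ste12, and 24 above and 6 below Tec1. Leaving out positions with 10-fold or more reads elsewhere, 5 were below Ste12 and 8 below Tec1. Without Dig1 lines at Ste12 or Tec1 positions, 96 (64 shared) were above and 88 below the pool, 109 above Ste12 and 97 above Tec1. Library sizes outside the called windows gave 131 above and 77 below. A 600 bp window gave 68 above (56 shared) and 113 below. Windows cut at the neighbouring gene gave 66 above (61 shared). At 2-fold, 294 were below the pool, 115 above Ste12 and 105 above Tec1. At 5-fold, 38 were above and 110 below the pool, 28 above and 24 below Ste12, and 19 above and 25 below Tec1. Minimums of 5, 20 and 0 Dig1 lines gave 126, 49 and 225 above. Fisher's exact test, adjusted p at or under 0.05, gave 117 above, among them all 79. A pseudocount of 10 RPKM gave 4 genes lower in starvation against 7.

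Of 1889 values of 45 named genes, 9 changed direction. Without Dig1 lines at Ste12 or Tec1 positions TEC1 came to 0.817, SVS1 to 0.427, PCL2 to 0.612, PCL1 to 0.896 and NFG1 to 0.590; the pool kept its lines at those positions, so this setting lowers such loci by construction. In the 600 bp window YGR107W came to 0.383, YIL071W-A to 0 and HCH1 to 0.693, and with the window cut at the neighbouring gene HCH1 came to 0.485. The cause of the window changes was not tested. No paired analysis was possible because each factor has 1 library and the labels carry no replicate numbers. The planned comparison of promoter motifs was not run, since no promoter sequence was used here. Genes with under 10 expected lines could not be called below at this depth.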

Other observations

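By chromosome, 23.4% of the Dig1 lines lay on chromosome 4, the highest share of the 28 libraries (others 7.24% to 22.6%, median 12.5%). Of the 6043 Dig1 lines there, 4104 (67.9%) lay in the windows of genes above the pool, which on this chromosome include PCL2, VCX1 and STB3. Chromosome 15 held 4.84% of the Dig1 lines, under the share of each other library. The 175 genes below the pool with at least 5 RPKM had 56 (32.0%) higher in starved cells by a log2 difference of at least 1, against 10.8% of all 6006 genes, and their median difference was 0.31. Genes could be called below only among the 548 with at least 10 expected lines. The share among those 548 was not taken, so whether the excess belongs to genes low in Dig1 cannot be told. RSR1, a bud site gene, held 12 Dig1 lines (2.36-fold, 1.17 to 4.37).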
